A study of Mus musculus with 2 samples.

Results

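The 4 Sall genes of the mouse, Sall1, Sall2, Sall3 and Sall4, were examined in chromatin immunoprecipitation sequencing of nephron progenitor cells. They were chosen by name, as the members of one family, from 21887 protein-coding genes. The cells came from kidneys of wild-type mouse embryos at E16.5 and were cultured before formaldehyde crosslinking. Class I histone deacetylases were the target: 1 library was made with an Hdac1 antibody and 1 with an Hdac2 antibody. No treatment or mutant was part of these samples. Since 0.5 µg of the Hdac1 and 1 µg of the Hdac2 antibody were used, antibody and amount cannot be told apart. The number of embryos behind a library was not stated.

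Sall proteins are zinc finger transcription factors related to the Drosophila homeotic gene spalt. A short motif at their amino terminus binds NuRD, the nucleosome remodelling and deacetylase complex that carries Hdac1 and Hdac2 as its deacetylase subunits. Sall1 is made by nephron progenitors and is needed for the kidney to form. Sall4 is best known from embryonic stem cells and germ cells, Sall3 from the developing head, limbs and nervous system, and Sall2 from the eye and neural tube. The data show where deacetylase lay on the Sall genes themselves. They do not show where Sall proteins bind, nor how much of each gene is transcribed.

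The measured features are islands, stretches of mm10 called by the authors as enriched in reads over background, and each carries their p-value or q-value. A low value marks a strong island within its own list, and values of the Hdac1 and Hdac2 lists are not compared with each other. The Hdac1 list held 30182 islands with a median width of 2.0 kb, and the Hdac2 list 20307 with a median of 2.8 kb. Read depth is unknown. With 1 library per antibody there is no replicate spread and no test between antibodies, so all numbers describe these libraries. The label of the cells cannot be checked by expression here; the progenitor genes Six2, Cited1, Eya1, Osr1 and Gdnf all had islands of both libraries at a gene end, and so did 3 of 5 marker genes of ureteric bud and stroma (Ret, Foxd1 and Tcf21), beside 30.7% of all protein-coding genes.

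RefSeq start positions were listed for 2 of the 4 genes, Sall1 and Sall2, both on the minus strand. The windows around those starts are printed because they differ in base composition. An Hdac1 island covered each of the 5 windows, and an Hdac2 island covered all but the outer one of Sall2. Each runs from 250 bases before the start to 50 bases after it on GRCm38.p6 (the assembly of mm10), 5′ to 3′ on the minus strand, as RefSeq gives it. Starts are numbered from the outermost inwards, and capitals mark CG dinucleotides.
Sall1 start 1 (chr8:89044113-89044412): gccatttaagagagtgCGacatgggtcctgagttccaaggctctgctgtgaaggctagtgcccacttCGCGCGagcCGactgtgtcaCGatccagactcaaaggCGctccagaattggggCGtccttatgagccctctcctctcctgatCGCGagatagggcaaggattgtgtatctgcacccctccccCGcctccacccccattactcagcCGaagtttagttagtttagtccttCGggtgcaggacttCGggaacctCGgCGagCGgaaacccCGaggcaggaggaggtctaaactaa
Sall1 start 2 (chr8:89043463-89043762): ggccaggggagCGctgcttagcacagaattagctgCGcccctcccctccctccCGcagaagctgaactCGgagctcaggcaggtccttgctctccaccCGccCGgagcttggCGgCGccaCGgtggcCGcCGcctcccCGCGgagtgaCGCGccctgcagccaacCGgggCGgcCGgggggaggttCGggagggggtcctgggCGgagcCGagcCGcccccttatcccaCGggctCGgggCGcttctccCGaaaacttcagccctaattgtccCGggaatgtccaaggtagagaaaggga
Sall1 start 3 (chr8:89042813-89043112): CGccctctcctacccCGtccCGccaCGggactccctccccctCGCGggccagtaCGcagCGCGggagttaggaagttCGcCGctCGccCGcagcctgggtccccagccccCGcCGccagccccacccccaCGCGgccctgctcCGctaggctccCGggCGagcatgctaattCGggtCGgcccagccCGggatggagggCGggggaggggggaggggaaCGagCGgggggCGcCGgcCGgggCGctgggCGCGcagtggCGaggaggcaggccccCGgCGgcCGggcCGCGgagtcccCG
Sall2 start 1 (chr14:52328621-52328920): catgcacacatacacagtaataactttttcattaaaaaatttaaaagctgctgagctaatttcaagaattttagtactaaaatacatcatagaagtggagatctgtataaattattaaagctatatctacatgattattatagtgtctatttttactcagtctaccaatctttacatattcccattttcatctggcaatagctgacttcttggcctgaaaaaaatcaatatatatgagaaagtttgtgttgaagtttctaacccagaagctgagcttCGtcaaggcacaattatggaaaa
Sall2 start 2 (chr14:52316274-52316573): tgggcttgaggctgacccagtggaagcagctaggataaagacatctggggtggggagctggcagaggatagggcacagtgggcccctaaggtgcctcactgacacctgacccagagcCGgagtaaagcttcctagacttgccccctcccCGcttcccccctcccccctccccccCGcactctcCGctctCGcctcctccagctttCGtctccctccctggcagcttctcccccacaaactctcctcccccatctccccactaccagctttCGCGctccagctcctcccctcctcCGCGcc

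The Sall1 windows held many CG dinucleotides, the inner Sall2 window a middling number and the outer Sall2 window hardly any. Sall1 start 1 held 18 CG dinucleotides (percentile 71.1 of 32851 windows) and a GC content of 57.3%, start 2 held 27 (85.2) and 70.0%, and start 3 held 39 (95.8) and 79.7%. Sall2 start 2, inside the gene, held 10 CG (57.6) and 65.0% GC. Sall2 start 1 held 1 CG (9.78) and 30.3% GC, a lower GC content than nearly all other windows (percentile 1.09). Search for 2 motifs linked in background knowledge to the family gave few matches. ATATT (reverse complement AATAT) is the A/T-rich motif bound by the carboxy-terminal zinc fingers of Sall4. Counting both strands, it occurred 2 times, at separate places, in Sall2 start 1 and in no other window printed here. Of all windows, whatever their GC content, 25.3% held it. No share is given for windows as poor in GC as Sall2 start 1, so 25.3% is not a like background for that window. GGGTGGG (reverse complement CCCACCC), reported for Sall2, occurred 1 time in Sall1 start 3 and 1 time in Sall2 start 2, against 17.5% of all windows with a match. A match shows letters only, not binding.

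Hdac1 lay at a gene end of all 4 Sall genes, and Hdac2 at a gene end of 2 of 4, Sall1 and Sall3. A gene end means within 1 kb of the first or the last annotated base of the gene. Over all protein-coding genes the share was 60.7% for Hdac1, 31.7% for Hdac2 and 30.7% for both. In each member the end with islands was the one with the higher coordinate, which for Sall1 and Sall2 is the outermost start; only Sall1 had islands at the other end too. Within the gene span, Hdac1 islands lay in 4 of 4 genes (65.5% of all genes) and Hdac2 islands in 3 of 4 (38.4% of all genes), Sall4 being without. Over 4 genes, with backgrounds this high, these counts alone say little about the family; its members differed in the width and place of their islands.

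**Figure D1:**
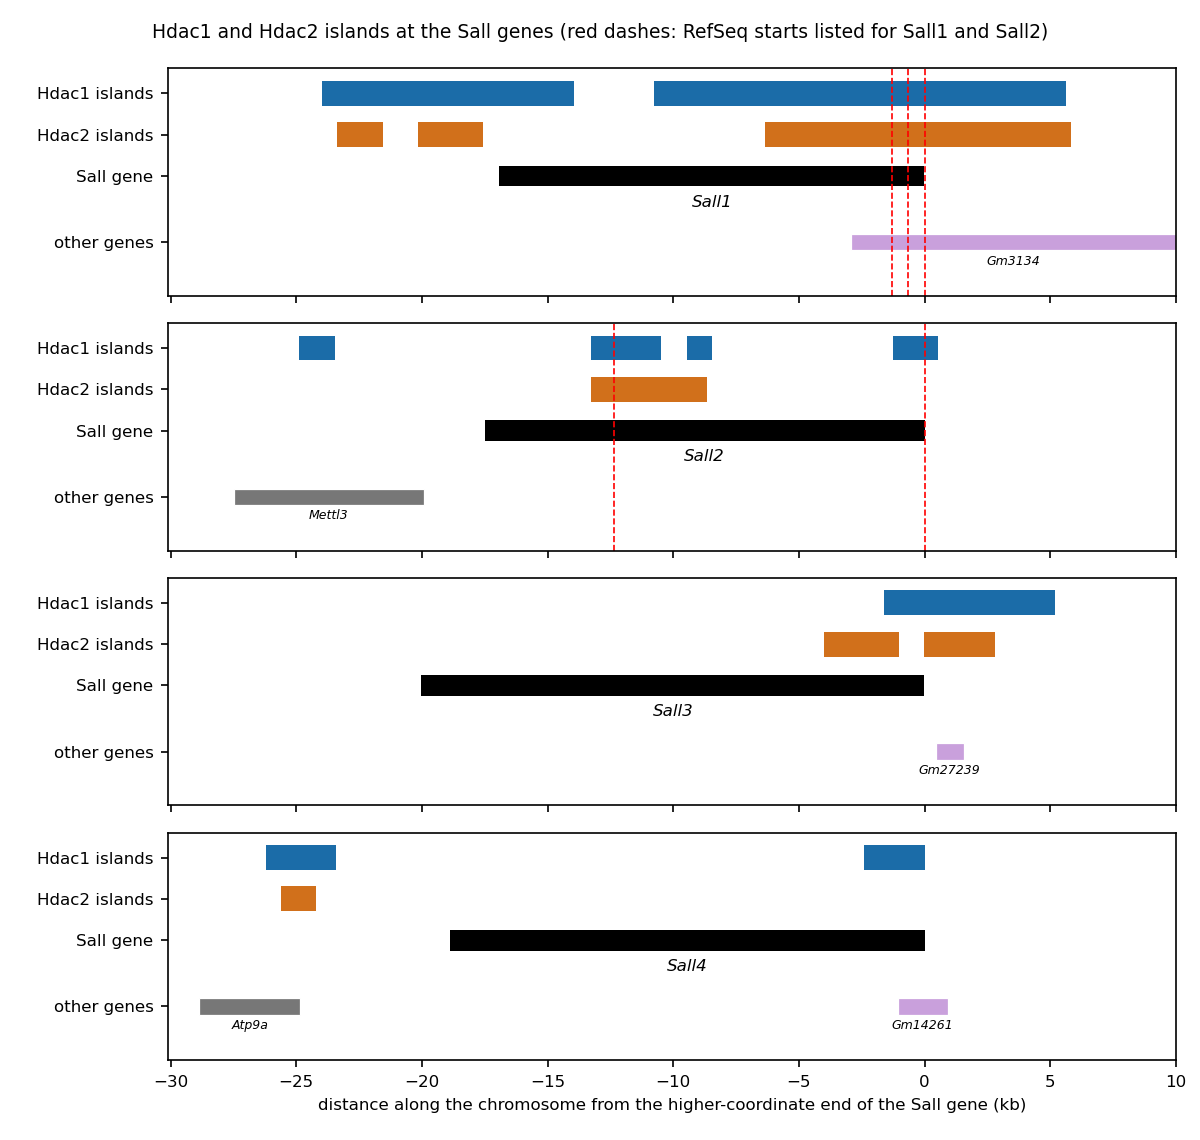
Islands at the 4 Sall genes and 10 kb on either side; the horizontal axis is the distance in kb from the higher-coordinate end of each gene, blue bars are Hdac1 islands, orange bars Hdac2 islands, black the Sall gene, grey other protein-coding genes and violet lncRNA genes, and red dashes the RefSeq starts listed for Sall1 and Sall2. Broad islands of both libraries (16.4 kb and 12.2 kb) covered the Sall1 starts, the shared islands of Sall2 lay inside the gene over its inner start, Sall3 had islands of both libraries across its higher end, and Sall4 had Hdac1 alone.

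Sall1, at 89027242 to 89044162 on chromosome 8, carried the broadest deacetylase islands of the family. An Hdac1 island of 16.4 kb, from 89033401 to 89049800, covered all 3 listed starts. It was 1 of 82 Hdac1 islands listed at 0, the lowest value, and 34 of 30182 Hdac1 islands were wider. An Hdac2 island of 12.2 kb, from 89037801 to 89050000, lay over the same starts with a value of 1.12e-45; 97 of 20307 Hdac2 islands were wider and 115 had a lower value. The outer edges of the islands differed by 0.2 kb. At the inner edge Hdac1 reached 4.4 kb farther into the gene than Hdac2. From start 1 the Hdac1 island ran 5.6 kb upstream and 10.8 kb downstream, and the Hdac2 island 5.8 kb upstream and 6.4 kb downstream. The islands shared 12.0 kb, which is 73.2% of the Hdac1 island and 98.4% of the Hdac2 island.

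A second group of islands lay at the 3′ end of Sall1. There an Hdac1 island of 10 kb, from 89020201 to 89030200, covered the last 3.0 kb of the gene and 7.0 kb beyond it. Only 97 Hdac1 islands were wider, while its value, 7.70e-36, was stronger than 70.9% of the list. Under it lay 2 separate Hdac2 islands, of 1.8 kb (1.38e-08) and 2.6 kb (2.09e-04). The latter began 0.6 kb from the gene, covered the miRNA gene Mir8110 and was weak, stronger than 7.68% of the Hdac2 list. Both libraries thus had islands at each of the 2 ends of Sall1, as 8.95% of all genes had for Hdac1 and 3.04% for Hdac2. For Hdac2 the 3′ end rests on that weak island alone. The island lay 642 bp from the gene, outside a window of 0.5 kb, and was not among the stronger 50% of the Hdac2 list. Between the Hdac1 islands, toward the 3′ end of the gene, lay a gap of 3.2 kb. With 1 kb on each side, 83.1% of Sall1 was covered by Hdac1 (percentile 98.7 among protein-coding genes) and 40.8% by Hdac2 (percentile 96.7).

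In all, 34 protein-coding genes had strongest end islands at least as wide as those of Sall1 in both libraries, Sall1 included, and they lay on 15 Hdac1 islands. The genes most like Sall1 were sought by the percentile of width and of value of the strongest end island in each list, 4 measures over 2 libraries, among 6724 other genes with both. By that measure Hoxb9, Hoxb8 and Hoxb7 came first (distance 0.146 percentile points), and all lay on the same Hdac1 island of 89.4 kb, because percentiles hardly separate the widest islands. With 1 gene per Hdac1 island, a rule chosen after the values were seen, Hoxd11 (42.2 kb and 14.0 kb), Zfp503 (14.6 kb and 12.6 kb) and Foxc1 (16.2 kb and 13.6 kb) followed, the widths being those of Hdac1 and Hdac2.

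Sall2, at 52311177 to 52328670 on chromosome 14, had its strong islands inside the gene. An Hdac1 island of 2.8 kb, from 52315401 to 52318200, lay over the inner start at 52316323 with a value of 4.08e-70, stronger than 86.4% of the list. A second Hdac1 island of 1.0 kb (4.07e-14) lay 1.0 kb farther on. A single Hdac2 island of 4.6 kb, from 52315401 to 52320000, covered the first Hdac1 island whole, with the same lower edge, and 80% of the second (1.95e-14, stronger than 87.9% of its list). At the outer start, at 52328670, there was an Hdac1 island of 1.8 kb with a value of 7.92e-05, stronger than only 5.78% of the list, and the nearest Hdac2 island was 8.7 kb away. The count at gene ends therefore lists Sall2 as Hdac1 alone, on its weakest island. Around the listed starts both libraries were present at both genes that had such starts, Sall1 and Sall2; of protein-coding genes with a listed start 61.4% had Hdac1 within 1 kb of one and 31.7% Hdac2. The outer Hdac1 island of Sall2 was not among the stronger 50% of islands, nor in an Hdac1 list as short as the Hdac2 list. Under either alternative 3 of 4 Sall genes kept Hdac1 at an end, beside 52.6% and 56.9% of all protein-coding genes.

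The 2 starts of Sall2 fell into classes of promoter window that differ widely in how often islands lie there. Among windows with 0 to 1 CG, such as the outer one, 2.37% of 4640 (95% Wilson interval 1.97 to 2.85%) were overlapped by an Hdac1 island and 2.22% (1.83 to 2.68%) by an Hdac2 island. Among windows with 8 to 15 CG, such as the inner one, the shares were 57.1% (55.7 to 58.4%) and 21.5% (20.4 to 22.7%). For Sall1 starts 1 and 2, with 16 to 31 CG, the shares of the class were 94.4% and 47.5%, and for start 3, with over 31, they were 99.4% and 71.1%. Hdac1 at the 3 Sall1 starts was thus what most windows of like CG number had. Windows of neighbouring starts overlap the same islands and are not independent.

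**Figure D2:**
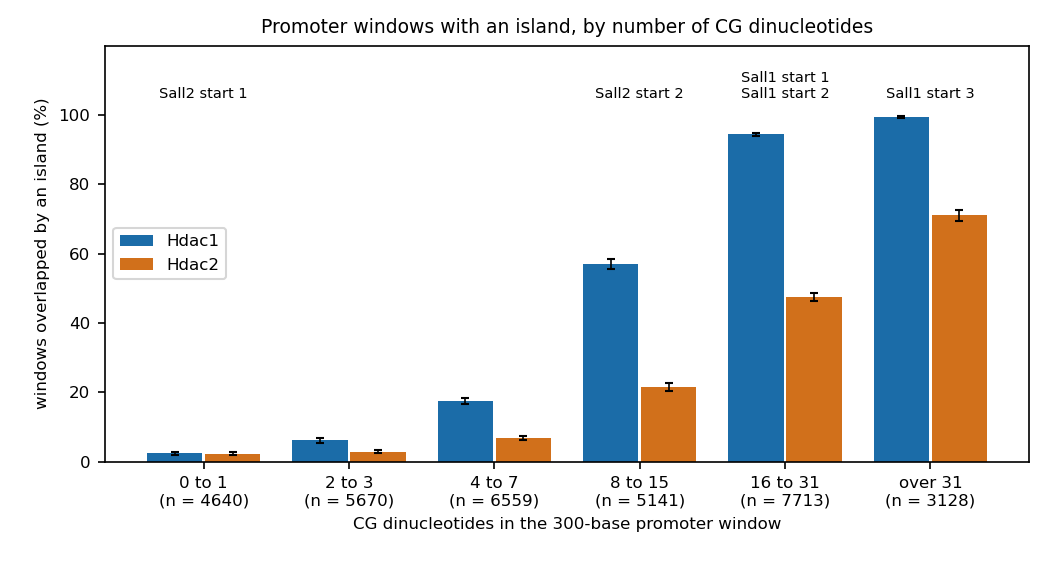
Share of 300-base promoter windows overlapped by an Hdac1 island (blue) or an Hdac2 island (orange), by number of CG dinucleotides in the window; error bars are 95% Wilson intervals, n is the number of windows, and the class of each listed Sall1 and Sall2 start is written above the bars. The outer Sall2 start stands in the class with the fewest islands, 2.37% for Hdac1, and the inner one in a class with 57.1%.

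Sall3, at 80966989 to 80987021 on chromosome 18, had a broad Hdac1 island of moderate value across its higher end. The island measured 6.8 kb, from 80985401 to 80992200, with 1.6 kb in the gene and 5.2 kb outside it. In width 397 Hdac1 islands exceeded it, while its value of 1.72e-45 was stronger than 76.5% of the list. Hdac2 lay there as 2 islands with a gap of 1.0 kb between them. One of 3.0 kb lay inside the gene (5.29e-07), and one of 2.8 kb, from 80987001 to 80989800, began just inside the gene's end and ran outwards (1.03e-10). The Hdac1 island covered the whole of the outer Hdac2 island and 20% of the inner one. The lncRNA gene Gm27239, just outside Sall3, was overlapped by islands of both libraries. The genes most like Sall3 on the same 4 measures were Snai1 (7.2 kb for Hdac1 and 2.8 kb for Hdac2), a zinc finger repressor of epithelial genes, Ston1 (4.0 kb and 2.6 kb) and Tbc1d10b (5.0 kb and 2.6 kb), at distances of 8.63 to 10.4 percentile points.

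Sall4, at 168748332 to 168767201 on chromosome 2, was the only member with no Hdac2 island in the gene or at an end. Its Hdac1 island of 2.4 kb, from 168764801 to 168767200, stopped 1 base short of the gene's higher end and had a value of 1.83e-43, stronger than 75.4% of the list. That width is the median of the strongest end islands over all genes with Hdac1, also 2.4 kb. The nearest Hdac2 island was 21.8 kb from it, across the gene and beyond the other end. A second Hdac1 island of 2.8 kb (3.20e-40) and the only Hdac2 island within 100 kb, of 1.4 kb (3.38e-09), overlapped each other at the end of the next gene, Atp9a. At unknown depth, a missing island does not tell absence of Hdac2 from a signal too weak to be called.

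**Figure D3:**
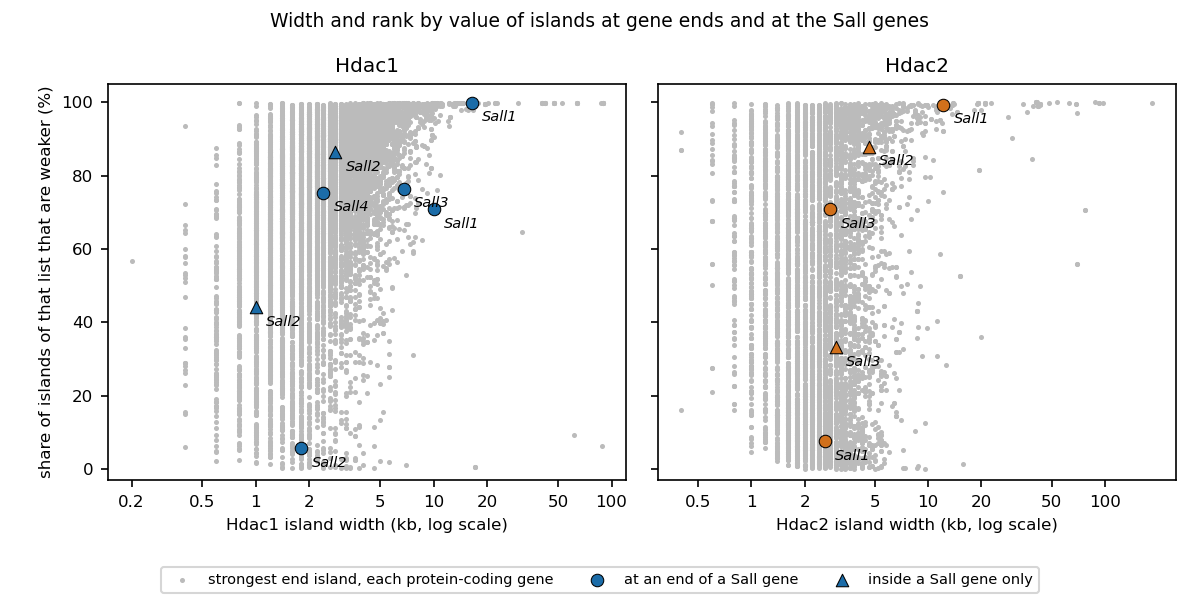
Width in kb (log scale) against the share of islands of the same list that are weaker, in %, for Hdac1 (left) and Hdac2 (right); grey points are the strongest end island of each protein-coding gene, circles islands at an end of a Sall gene and triangles islands inside a Sall gene only. The Sall1 start island stands at the wide and strong corner in both lists, the Hdac1 island at the 3′ end of Sall1 (10 kb) and that of Sall3 (6.8 kb) are wide for their rank, and the end island of Sall2 (1.8 kb) lies near the bottom.

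Within 100 kb of the 4 genes there were 18 Hdac1 and 10 Hdac2 islands, and Sall1 had the most covered sequence in both libraries. All 4 genes had islands of each library in this range, as 85.4% of all genes did for Hdac1 and 85.5% for Hdac2. Hdac1 islands covered 34.8 kb around Sall1 (percentile 94.3 among protein-coding genes), 12.4 kb around Sall2 (60.6), 7.8 kb around Sall3 (43.1) and 5.2 kb around Sall4 (32.6). For Hdac2 the order was Sall1 with 18.4 kb (percentile 92.8), Sall3 with 6.6 kb (55.4), Sall2 with 5.4 kb (46.9) and Sall4 with 1.4 kb (17.6). With no replicates, no spread can be set against the steps between neighbours in these orders, and the order after Sall1 depended on the range. Within 200 kb Sall4 came second in both libraries, with 20.3 kb of Hdac1 and 9.8 kb of Hdac2. Up to the nearest end of another gene, Sall3 had more Hdac1 than Sall2 (7.1 kb and 5.6 kb). With the stronger 50% of islands, Sall3 had less Hdac2 than Sall2 (3.6 kb and 5.4 kb). Counted as islands, Sall1 and Sall2 had 7 of Hdac1 each and Sall3 and Sall4 had 2 each; Hdac2 had 4, 2, 3 and 1 in the order Sall1 to Sall4.

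Other protein-coding genes lay within 100 kb of Sall2, Sall3 and Sall4, and none lay within 100 kb of Sall1. At Sall3 and Sall4 they lay on the lower-coordinate side only. On the higher side the nearest were Galr1, at 1405.5 kb from Sall3, and Zfp64, at 126.1 kb from Sall4. The nearest protein-coding genes to Sall1 were Cyld, at 275.3 kb, and Tox3, at 1202.9 kb. All 5 Hdac1 islands and both Hdac2 islands that touched no protein-coding gene, nor its ends, were at Sall1. Among them was a site 56.6 kb beyond the 3′ end where islands of both libraries ended at the same base, 88970600. The Hdac1 island there was 1.0 kb wide (5.07e-23). The Hdac2 island was 1.8 kb wide (9.61e-16), a narrow one (percentile 21.6 in width) that was stronger than 90.9% of its list. The other 4 Hdac1 islands, of 1.6 kb to 2.0 kb, had no Hdac2. Of these, 2 lay 22.4 kb and 19.8 kb beyond the 3′ end and 2 lay 34.0 kb and 62.8 kb upstream of the gene. The one at 62.8 kb overlapped a lncRNA gene, Gm35358.

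At Sall2, 4 of the 7 Hdac1 islands lay at or in Chd8, Rab2b, Tox4 and Mettl3, and on the other side a run of olfactory receptor genes, of which Olfr1513 was the first at 20.4 kb, carried no island within 100 kb of Sall2. The Hdac1 island shared by the ends of Rab2b and Tox4 (1.72e-64) overlapped an Hdac2 island (4.38e-09). Restricted to the sequence up to the nearest end of another gene, Sall2 had 3 Hdac1 islands over 5.6 kb. Sall3 and Sall4 each neighbour a gene for a P4-type lipid flippase: Atp9b lay 32.9 kb from Sall3, and Atp9a 6.0 kb from Sall4. Islands of both libraries marked the facing end of each, 1.0 kb of Hdac1 (9.72e-90) and 0.8 kb of Hdac2 (2.23e-13) at Atp9b, and the overlapping pair given above at Atp9a. The Atp9b islands were stronger within their lists than any island of Sall3.

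**Figure D4:**
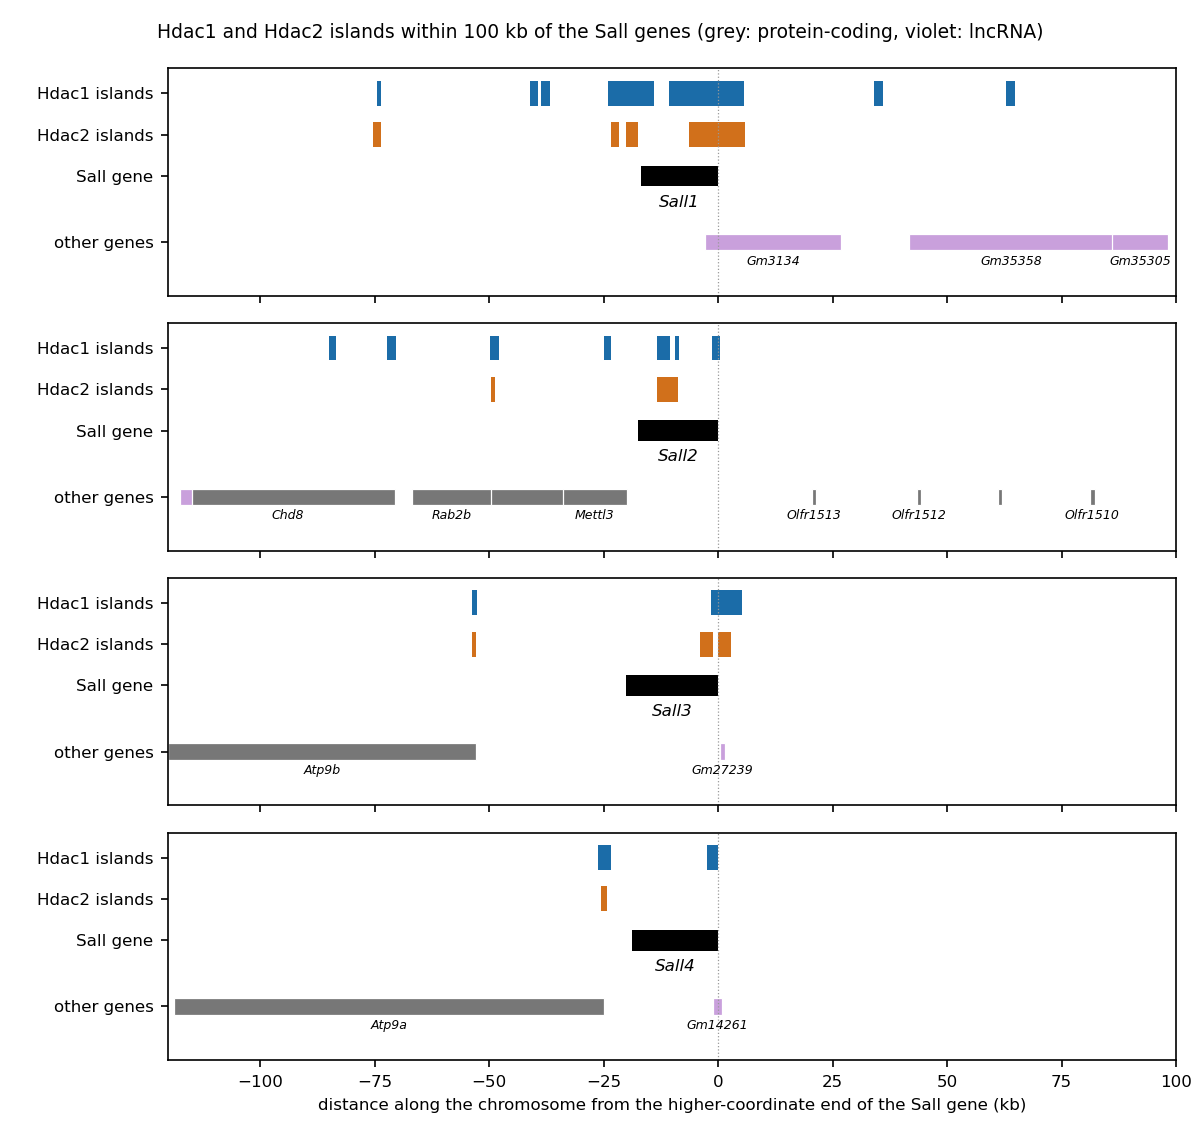
Islands within 100 kb of the 4 Sall genes; the horizontal axis is the distance in kb from the higher-coordinate end of each gene (dotted line), blue bars are Hdac1 and orange bars Hdac2 islands, grey other protein-coding genes and violet lncRNA genes. Sall1 has 7 Hdac1 and 4 Hdac2 islands and no other protein-coding gene in the range, whereas the outlying islands of Sall2, Sall3 and Sall4 lie on neighbouring genes.

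Every Hdac2 island near the family overlapped Hdac1. Of the 10 Hdac2 islands within 100 kb, 10 shared at least 1 bp with an Hdac1 island (95% Wilson interval 72.2 to 100%), compared with 59.4% of the whole Hdac2 list and 68.0% of the Hdac2 islands within 100 kb of any protein-coding gene. Such an interval treats islands as independent, though these cluster at 4 genes and 2 of them lay under the same Hdac1 island at Sall1. For a single gene such full sharing was common. Of the 2438 genes with 4 Hdac2 islands in this range, as Sall1 has, 57.3% had all of them on Hdac1. For genes with as many Hdac2 islands as Sall2, Sall3 and Sall4 the shares were 59.8%, 58.2% and 60%. In the other direction 9 of 18 Hdac1 islands (50%, interval 29.0 to 71.0%) overlapped Hdac2, against 39.8% of the whole Hdac1 list, which lies inside that interval. Under a reciprocal overlap of at least 50%, 5 islands of each library were shared. Several Hdac2 islands near Sall1, Sall2 and Sall3 are much wider or narrower than their Hdac1 partners. The share of the whole lists under that rule is not given here, and the 1 bp shares above are no background for it.

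A lncRNA gene lay within 1 kb of an end of 3 of the 4 Sall genes, which was noticed after the values were seen. These were Gm3134 at Sall1, Gm27239 at Sall3 and Gm14261 at Sall4, each overlapped by the Hdac1 island at that end. Over all protein-coding genes 15.0% had a lncRNA gene at an end. At an end of such genes Hdac1 was present in 70.7% of cases and Hdac2 in 38.2%, compared with 58.9% and 30.6% of the genes without one.

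The partner genes of Sall1 set its islands in context. All 15 genes for NuRD subunits had Hdac1 at an end, and 11 had Hdac2, beside 60.7% and 31.7% of all genes. Those shares take in genes of every CG number. Among promoter windows with 16 to 31 CG, 94.4% had Hdac1 and 47.5% Hdac2. The CG number of promoters in this list and the next was not examined, so the counts are not read as particular to either list. The strongest Hdac1 islands of the NuRD genes were narrow beside that of Sall1, from 1.6 kb to 9.0 kb with a median of 3.4 kb. The widest were at the remodelling ATPase genes Chd3 (9.0 kb) and Chd4 (7.6 kb), which also had Hdac2 (4.0 kb and 5.8 kb). The Hdac1 gene had 3.8 kb of Hdac1 and 2.2 kb of Hdac2, and Rbbp4, for a histone-binding subunit, 3.4 kb and 2.6 kb. Chd5, Gatad2a, Mta1 and Mta2 had Hdac1 alone. In the stronger 50% of each list the Hdac2 count fell from 11 to 5, as the share of all genes with Hdac2 at an end fell from 31.7% to 15.8%.

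Genes that act with or downstream of Sall1 in nephron progenitors had wider islands, by median, than the NuRD genes. All 14 had Hdac1 and 13 had Hdac2, beside 60.7% and 31.7% of all genes, with median widths of 10.5 kb and 3.8 kb, against 2.4 kb for each library over all genes with an island. Six2, which keeps progenitors undifferentiated, had 17.4 kb and 18.2 kb. Kif26b, a kinesin gene downstream of Sall1, had 11.2 kb of Hdac1 (4.08e-285) and 3.8 kb of Hdac2 (7.93e-25). Gdnf, the ligand that draws the ureteric bud into the progenitor field, had 9.8 kb and 5.0 kb. Among the 14, Hdac2 reached the width of the Sall1 island only at Six2 and Hoxd11 (14.0 kb), and Pax2 had no Hdac2 island at an end. The islands of Hoxa11 and Hoxd11 extend over neighbouring Hox genes. Wide islands were not particular to this list. The stroma marker gene Tcf21 had 13.2 kb of Hdac1 and 5.6 kb of Hdac2. The other ureteric bud and stroma marker genes with Hdac1 at an end, Ret, Wnt11 and Foxd1, had 2.2 kb to 3.2 kb of it. Zfp503 and Foxc1, named above as like Sall1, are also outside the list. Both lists were drawn up with earlier results of these data known, so their counts describe the libraries and add no independent support.

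**Figure D5:**
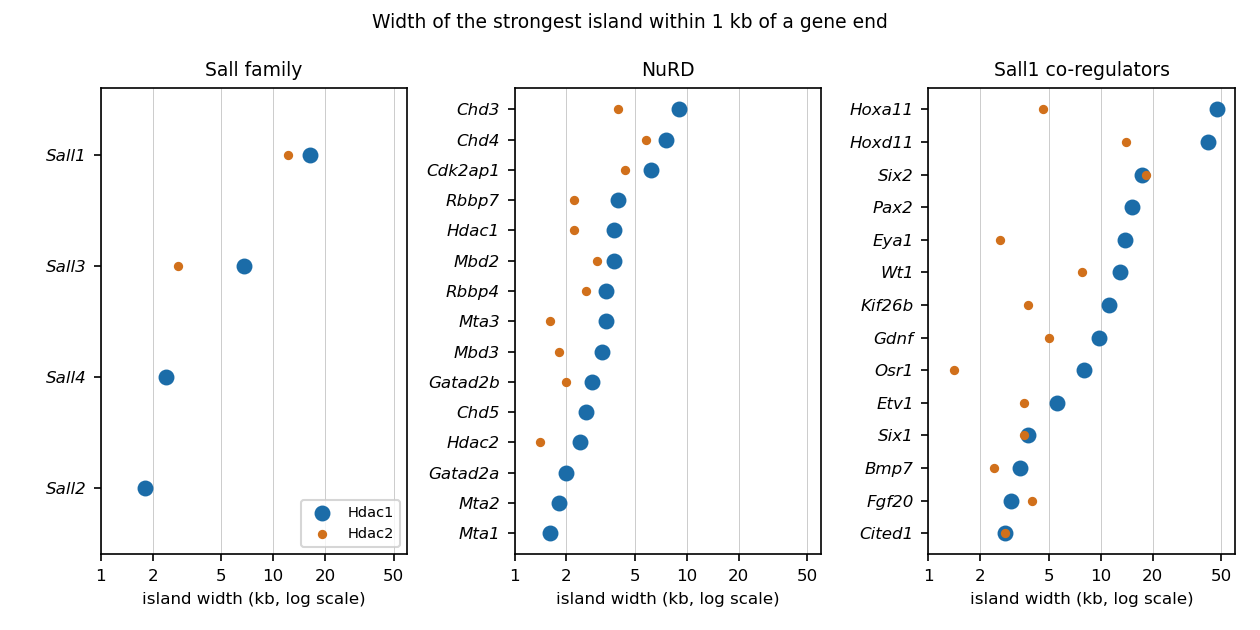
Width in kb (log scale) of the strongest island within 1 kb of a gene end, for Hdac1 (large blue points) and Hdac2 (small orange points), in the Sall genes (left), 15 NuRD genes (middle) and 14 co-regulators of Sall1 (right); a missing orange point means no Hdac2 island at an end. Sall1, with 16.4 kb and 12.2 kb, stands among the widest co-regulator genes and beyond all NuRD genes, whose widest Hdac1 island is 9.0 kb.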

How the data were processed

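Hdac1 and Hdac2 ChIP-seq libraries, 1 each, were made from 500 pg of DNA with 12 amplification cycles and more until the yield was enough, per the labels' protocols, so reads are not independent molecules. IgG and H3K4me3 immunoprecipitations were not analysed here. The submitters' processing notes name SICER, BWA 0.7.5a, bedtools 2.17, SAMtools 1.3.1 and FastQC, and the build mm10; SICER, also named in the files, joins enriched windows into islands. Settings of SICER, the background library and the depth were not stated. The deposited lists give each island a p-value or q-value; which of these the authors used is not stated. Island widths were multiples of 200 bp, so edges are coarse.

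Positions were made 1-based. Genes and lncRNA genes came from RefSeq GRCm38.p6, on chromosomes 1 to 19, X and Y. That table has no strand, so both gene ends were used. Promoter windows and strand came from a RefSeq table that listed starts for 2 of 4 members and 17492 protein-coding genes. Overlap meant at least 1 bp. Percentiles rank 1 gene or island among all, with ties shared, 100 being the widest, most covered or strongest. Intervals are 95% Wilson intervals and cover counting error only.

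The members and lists were chosen with earlier results of these data known. Named genes were the members, the NuRD and co-regulator lists, marker genes, nearest neighbours and, for each member with both libraries at its ends, the 3 most similar genes; genes named otherwise are those overlapped by a described island. The island-to-gene step was tested on simulated data, where all 200 planted genes were recovered in each library of 21887 genes, and overlap counts equalled those of bedtools 2.31.1. Alternatives were other windows, flanks, overlap rules, the stronger 50% of islands, islands merged within 1 kb and lists of equal length. The work used pandas 2.3.3 and numpy 2.4.6 under Python 3.11.15, with scipy 1.17.1 for intervals and matplotlib 3.10.9 for plots.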

Additional observations from a re-analysis of the deposited data

How the results depend on the processing

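Of 48 comparisons of a summary count or covered length with an alternative, 43 stayed within 1.5 times the reported value. Some of the 48 could not move. For Hdac2 the list of equal length was the whole list again. Merging islands within 1 kb cannot change whether a gene has an island at an end. Where every gene of a set already had an island, a wider window could not change the count. Such comparisons say nothing of stability. The comparisons that left the range of 1.5 times were these. Hdac2 lay near a listed start at 2 of the 2 Sall genes with such starts, against 1 by gene ends. Within 200 kb there were 33 Hdac1 islands in place of 18, from neighbours of Sall4 in particular. A reciprocal overlap of 50% left 5 shared Hdac1 islands in place of 9 and 5 shared Hdac2 islands in place of 10. No share of the whole lists under that rule is given beside these counts. The stronger 50% of islands left 5 NuRD genes with Hdac2 in place of 11, while the share of all genes with Hdac2 went from 31.7% to 15.8%. For single Sall genes 114 of 128 comparisons stayed within that range, and some of these could not move for the same reasons. Sall2 lost its Hdac1 end island in the stronger 50% of islands and in lists of equal length, and gained an Hdac2 island with a 5 kb window. No paired analysis was possible because there is 1 library per antibody and no test. Unknown depth limits what a missing island can show.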
